A study of Rattus norvegicus with 6 samples.

Results

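The 36 proliferation and mitosis genes described here were the rows of the deposited gene tables whose names were on a list of 36 symbols, out of 40995 genes in all. All 36 were found and all 36 passed the filter on low counts in both comparisons. They were measured by mRNA sequencing of lung tissue from 6 untreated rats on a Sprague-Dawley background. The 3 knockout (KO) rats came from the crTMPRSS2 line, in which Tmprss2, the gene of a serine protease of airway and alveolar epithelium, was edited with CRISPR/Cas9, and the other 3 were wild type (WT). The labels name the 3 libraries of each genotype as biological replicates and give them 1 batch; the sources used here state neither sex nor age, litter or number of founders.

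A dividing cell passes through DNA synthesis and mitosis in order, and most genes used in these steps are transcribed only in cells that are cycling. E2F factors switch on the genes of DNA synthesis as a cell leaves G1, and FOXM1 with the MYB-MuvB complex switches on the genes of mitosis later, while the DREAM complex keeps both sets silent in resting cells. In the adult lung most epithelial and endothelial cells rest, and slow division is known in alveolar type 2 cells, alveolar macrophages, airway basal cells and lymphocytes. In bulk tissue, fewer dividing cells and less RNA per dividing cell cannot be told apart.

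KO libraries were shallower than WT libraries, and lung markers were high in all 6. Total counts were 29933359 to 30514778 in KO libraries and 33033732 to 36895162 in WT libraries, and the members had between 18 and 1851 counts in a library. Sftpc, the surfactant protein C gene of alveolar type 2 cells, stood at 9300 to 9720 FPKM in KO and 10600 to 17400 FPKM in WT (the deposited unit, counts per kilobase of gene and normalised library size). Tmprss2 stood at 46.1, 56.4 and 47.0 CPM (counts per 1e6, with library sizes scaled by the trimmed mean of M values) in KO replicates 1 to 3, against 50.5, 62.0 and 65.7 CPM in WT replicates 1 to 3; gene totals do not show a small edit, so this level does not check the labels. WT replicate 1 stood apart: all 7 striated muscle markers and all 9 squamous epithelium markers of the lists used were highest there. The muscle markers summed to 10.2 to 28.9 FPKM in KO, 5310 FPKM in WT replicate 1 and 11.4 and 13.7 FPKM in WT replicates 2 and 3, and the squamous markers to 3.22 to 8.41, 2060, and 8.16 and 7.28 FPKM in the same order. Sprr3 and Krt6a, both squamous markers, were listed at 0 in the other 5 libraries. For this reason each comparison is given with all 6 libraries and without WT replicate 1.

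The promoters of the members carried motifs known from cell cycle transcription, and 4 promoters are shown: a DNA synthesis gene with E2F matches, 2 mitotic genes with CHR matches, and Cdk1 with both. RefSeq gave a promoter (build GRCr8, 250 bases before to 50 after the start of the gene) for 27 members; Mcm4, Rrm2, Aurkb, Ccna2, Ccne2, Foxm1, E2f1, Tpx2 and Ube2c had none in the table. In the 4 sequences below, capitals mark matches on either strand to the E2F site (TTTCGCGC, TTTGGCGC or TTTCCCGC), to the cell cycle homology region or CHR (TTTGAA or TTTAAA), which MuvB complexes bind, and to the NF-Y box (CCAAT). They lie at chr12:22163129-22163428 (minus strand) for Mcm7, chr20:19265043-19265342 (plus strand) for Cdk1, chr8:71320535-71320834 (minus strand) for Kif23 and chr1:186147408-186147707 (plus strand) for Plk1.
Mcm7: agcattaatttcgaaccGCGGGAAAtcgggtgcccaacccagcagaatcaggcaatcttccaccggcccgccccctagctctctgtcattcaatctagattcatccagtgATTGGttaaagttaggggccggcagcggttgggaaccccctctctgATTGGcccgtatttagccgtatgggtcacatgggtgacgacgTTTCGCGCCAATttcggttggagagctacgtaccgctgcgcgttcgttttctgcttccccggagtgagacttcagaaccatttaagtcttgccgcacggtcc
Cdk1: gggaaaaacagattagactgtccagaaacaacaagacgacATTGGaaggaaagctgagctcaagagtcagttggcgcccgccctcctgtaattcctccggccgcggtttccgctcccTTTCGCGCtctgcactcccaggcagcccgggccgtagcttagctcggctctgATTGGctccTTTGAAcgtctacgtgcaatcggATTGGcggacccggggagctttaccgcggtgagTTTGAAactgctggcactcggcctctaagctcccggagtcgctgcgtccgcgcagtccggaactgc
Kif23: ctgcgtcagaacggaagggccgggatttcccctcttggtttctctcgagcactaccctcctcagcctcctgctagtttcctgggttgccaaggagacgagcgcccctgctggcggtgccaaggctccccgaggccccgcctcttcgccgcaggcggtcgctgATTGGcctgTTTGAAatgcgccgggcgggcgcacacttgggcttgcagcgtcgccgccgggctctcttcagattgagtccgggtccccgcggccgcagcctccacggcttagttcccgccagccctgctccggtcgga
Plk1: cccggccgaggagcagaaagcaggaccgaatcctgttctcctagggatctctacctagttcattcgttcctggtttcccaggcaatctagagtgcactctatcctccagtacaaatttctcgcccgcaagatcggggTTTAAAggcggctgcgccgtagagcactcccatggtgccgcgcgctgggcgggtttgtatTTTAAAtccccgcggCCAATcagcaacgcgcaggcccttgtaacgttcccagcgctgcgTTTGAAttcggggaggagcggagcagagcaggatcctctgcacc
Mcm7 holds 2 E2F matches, the second of which overlaps an NF-Y box, and no CHR. Kif23 and Plk1 hold CHR and NF-Y matches and no E2F match, and Cdk1 holds all 3 kinds.

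Of the 7 DNA synthesis promoters, 6 held an E2F match and 1 a CHR match, while of the 20 promoters of the other roles 1 held an E2F match and 19 a CHR match. Melk was the member of the other roles without a CHR match, and Pcna the DNA synthesis gene without an E2F match. Of the 27 member promoters 25.9% held an E2F match, 74.1% a CHR match and 74.1% an NF-Y box, against 1.72%, 28.3% and 37.5% of all 33469 promoters of the same length. All 9 spindle and chromosome promoters held both a CHR match and an NF-Y box. A match is a run of letters and not a measured binding site.

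**Figure D1:**
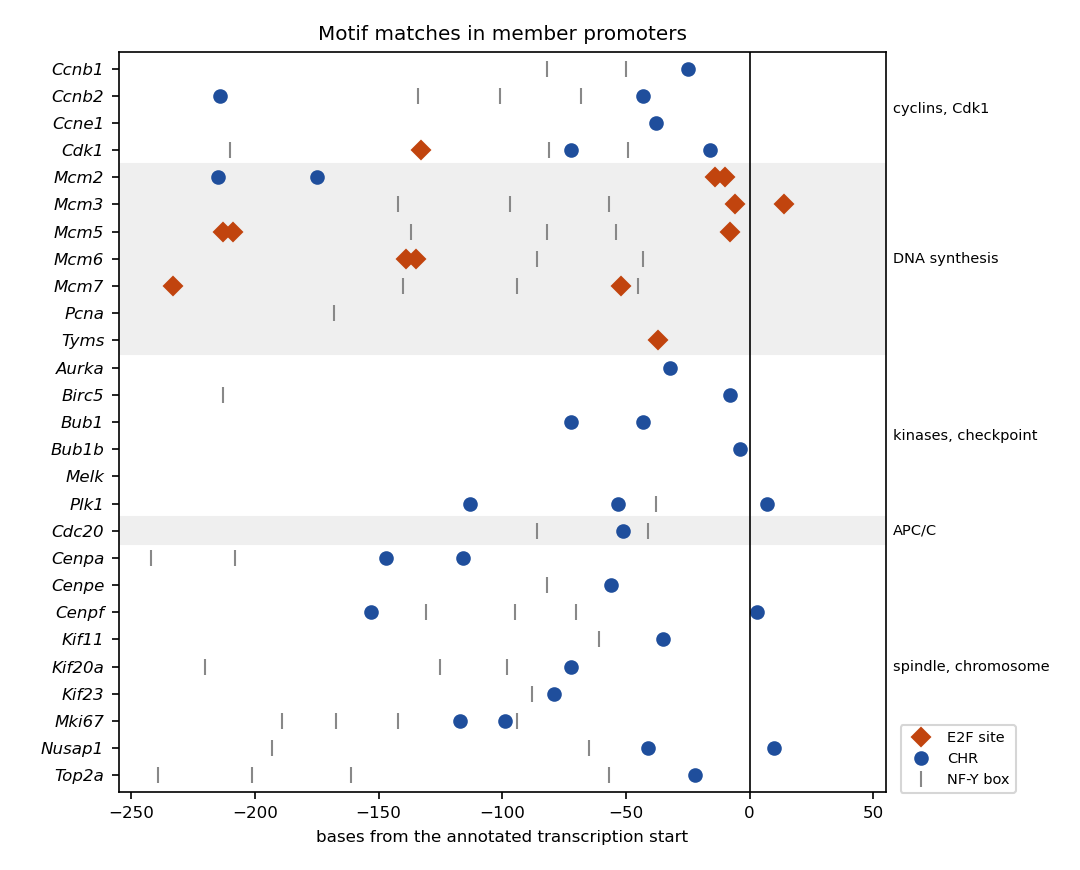
Positions of motif matches in the 27 member promoters, in bases from the annotated transcription start (x axis), with genes grouped by role (y axis). E2F sites (diamonds) lie in Cdk1 and 6 of 7 DNA synthesis genes, and CHR matches (circles) in 19 of the 20 genes of the other roles; ticks are NF-Y boxes.

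The comparison of KO with WT lungs set the genotypes side by side without treatment, and 0 of the 36 proliferation and mitosis genes passed the test. With all 6 libraries, edgeR's quasi-likelihood test called 0 members at a Benjamini-Hochberg adjusted p under 0.05, where it called 0.0542% of the 18464 genes tested (0.0162% higher and 0.0379% lower in KO). At an unadjusted p under 0.05 it found 0 of 36 members and 11.3% of all genes, and DESeq2 and limma-voom also called 0 members. The lowest adjusted p of a member was 0.55. The median log2 fold change of the members was -0.06, against -0.0029 for all tested genes, with 13 members above 0 and 23 below. KO and WT levels overlapped for all 36 members, whereas 22.8% of all genes tested had groups that did not overlap.

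In the comparison without WT replicate 1 the result was again 0 of 36 members, where 3.99% of 18994 genes were called (1.65% higher and 2.34% lower in KO). At an unadjusted p under 0.05 there was 1 member, Aurkb, against 17.8% of all genes, and DESeq2 and limma-voom called 0. The median log2 fold change was -0.06 for the members and 0.00 for all genes, with 15 members above 0 and 21 below. Groups did not overlap for 5 members (13.9%, against 34.6% of all genes), namely Foxm1, Aurkb, Melk, Kif23 and Cenpe, each with the 3 KO libraries below both WT libraries (17.5% of all genes lay that way, and 17.1% with KO above). Only 2 WT libraries stand behind these values.

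The intervals show how large a difference the data leave possible. With all 6 libraries, the 95% confidence interval of the log2 fold change lay wholly between -1 and 1 for 29 of the 36 members, and the widest ends over all members were -1.35 and 1.35. The other 7 were Cdk1, Ccne1, Ccne2, Birc5, Bub1b, Melk and Ube2c. The interval lay within -1 and 1 for 32 members without WT replicate 1, all but Ccne1, Birc5, Melk and Ube2c. A miss of the threshold does not show that the genotypes have equal levels.

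**Figure D2:**
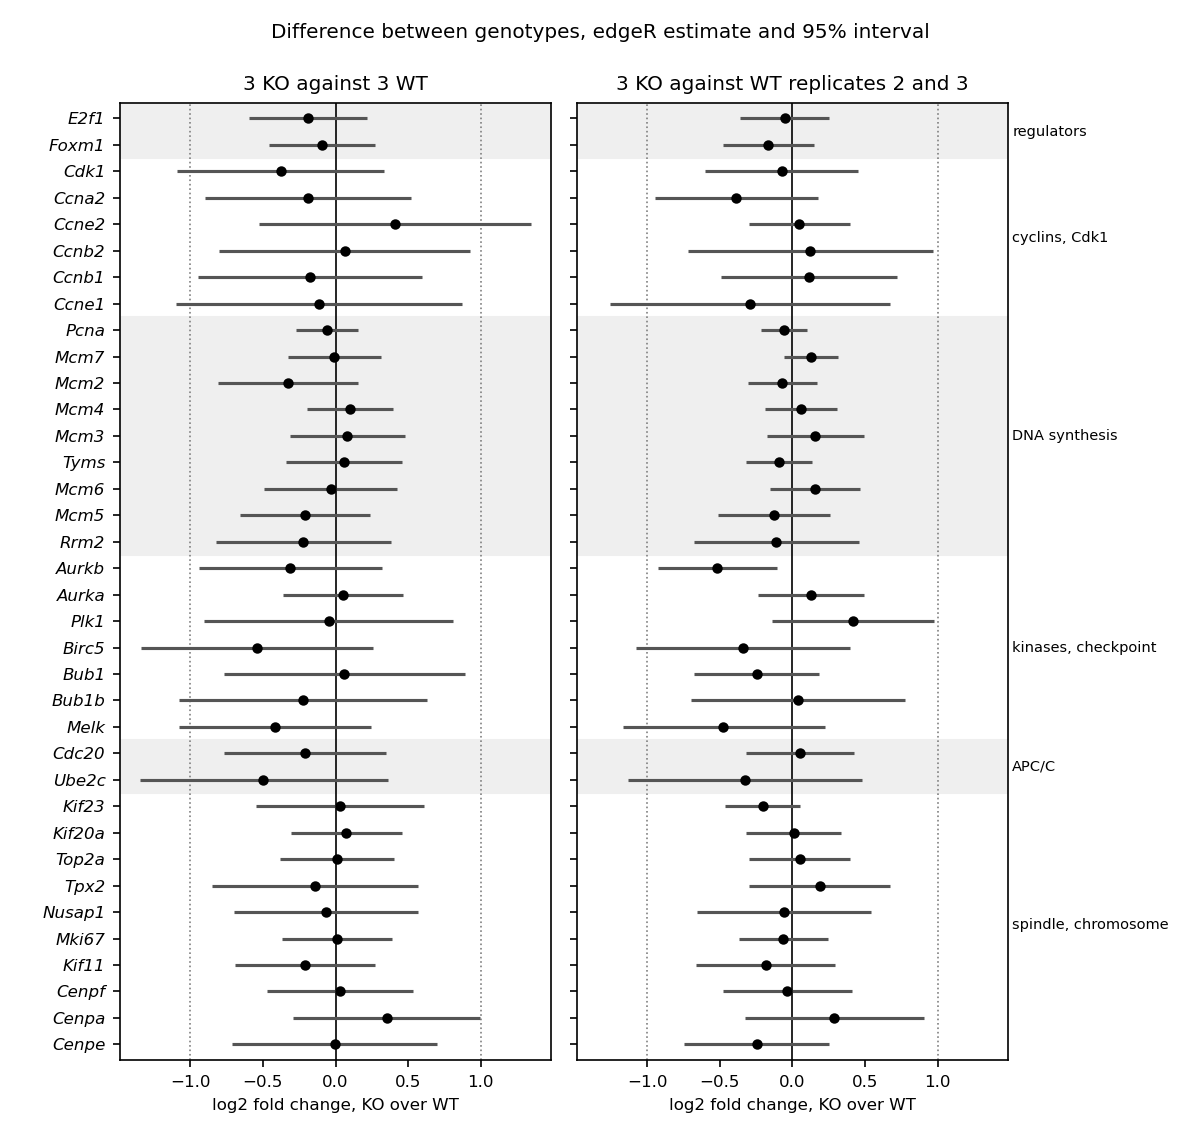
Log2 fold change of each member, KO over WT (x axis), with all 6 libraries (left) and without WT replicate 1 (right); points are edgeR estimates, lines 95% confidence intervals and dotted lines mark -1 and 1. Every interval on the left spans 0, and 29 lie within -1 and 1; on the right the interval of Aurkb lies below 0.

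Per gene length, most members had a mean below 5 FPKM, and the members differed widely from each other. The mean level over 6 libraries ran from 43.6 FPKM for Pcna to 0.38 FPKM for Cenpe. Of the 36, 8 had a mean above 5 FPKM (Pcna, Mcm7, Aurkb, Mcm2, Mcm4, Mcm3, Tyms and Mcm6), and 7 of these act in DNA synthesis. A mean below 1 FPKM was found for 7 members, Kif11, Cenpf, Bub1b, Melk, Cenpa, Ccne1 and Cenpe. The neighbours Mcm4 and Mcm3, at means of 5.83 and 5.81 FPKM, and the next pair, Tyms and Mcm6, at 5.56 and 5.41 FPKM, differed by less than the spread of each over libraries. Summed over the 36 members, the level was 151, 141 and 134 FPKM in KO replicates 1 to 3 and 159, 153 and 141 FPKM in WT replicates 1 to 3, and the groups overlapped. The 9 DNA synthesis genes made up most of it, with sums of 90.2 ± 2.76 FPKM in KO and 93.8 ± 7.61 FPKM in WT (SD, n = 3 each).

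**Figure D3:**
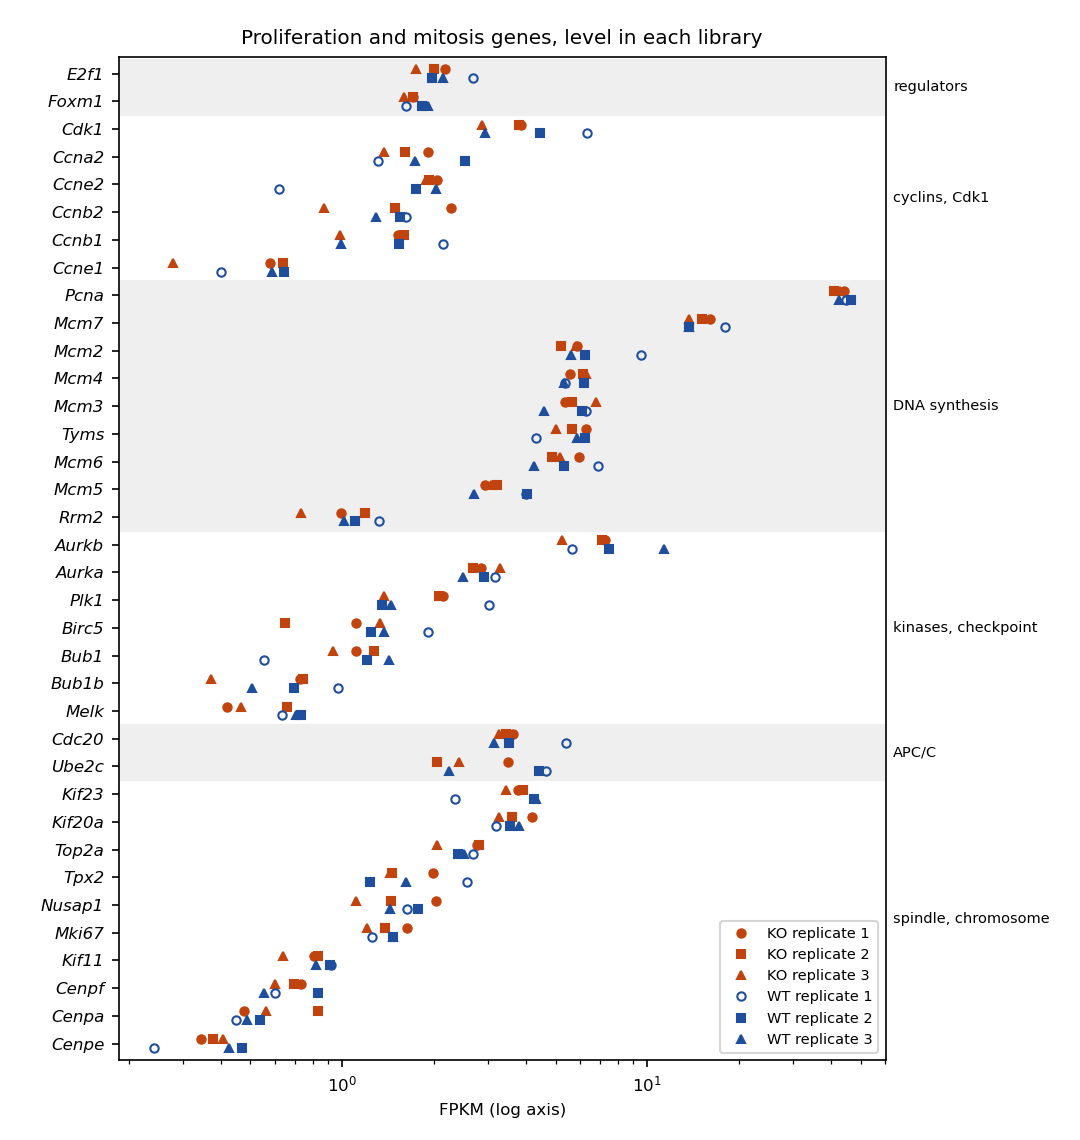
Deposited FPKM of each member in each library (x axis, log scale), with genes grouped by role and ordered by mean (y axis); KO libraries are orange, above the blue WT libraries of the same gene, and WT replicate 1 is an open circle. Levels run from Pcna, at a mean of 43.6 FPKM, to Cenpe, at 0.38 FPKM, and the colours overlap for each gene.

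Neither of the 2 transcription factor genes passed. E2f1 (chromosome 3, 143064535 to 143075362 of mRatBN7.2, minus strand), which turns on genes of S phase entry, stood at 12.4, 11.5 and 10 CPM in KO, against 15.2, 11.3 and 12.2 CPM in WT. The groups overlapped and WT replicate 1 was highest. Its log2 fold change was -0.19 (SE 0.17, edgeR adjusted p = 0.652) with all 6 libraries, and -0.05 (SE 0.14, adjusted p = 0.895) without WT replicate 1. Foxm1 (chromosome 4, 161639561 to 161652012, plus strand), the activator of mitotic genes, stood at 8.29, 8.29 and 7.75 CPM in KO, against 7.79, 8.90 and 9.30 CPM in WT. WT replicate 1 lay among the KO libraries and the other WT libraries above them. The log2 fold change was -0.10 (SE 0.16, edgeR adjusted p = 0.792) with all 6 libraries, and -0.17 (SE 0.14, adjusted p = 0.614) without WT replicate 1.

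Among the cyclins and their kinase, 0 of 6 passed. Cdk1 (chromosome 20, 19266226 to 19281417, plus strand), the kinase that drives entry into mitosis, stood at 5.05, 5.01 and 3.79 CPM in KO, against 8.26, 5.88 and 3.86 CPM in WT. The groups overlapped, with WT replicate 1 highest of all 6 and KO replicate 3 lowest, just under WT replicate 3. The log2 fold change was -0.38 (SE 0.30, edgeR adjusted p = 0.622) with all 6 libraries, and -0.07 (SE 0.24, adjusted p = 0.919) without WT replicate 1. Ccnb1, the B-type cyclin partner of Cdk1, stood at 5.02, 5.26 and 3.25 CPM in KO, against 6.97, 5.10 and 3.27 CPM in WT. WT replicate 1 was again highest and KO replicate 3 again lowest. Ccnb2, a second B-type cyclin, stood at 3.40, 2.24 and 1.31 CPM in KO, against 2.40, 2.32 and 1.93 CPM in WT, so that the KO libraries enclosed the WT ones.

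Ccna2 (chromosome 2, 119427239 to 119433645, minus strand), the cyclin of S and G2 phase, stood at 3.59, 3.03 and 2.58 CPM in KO, against 2.44, 4.77 and 3.27 CPM in WT. WT replicate 1 was lowest and WT replicate 2 highest of all 6. For Ccna2 the log2 fold change was -0.19 (SE 0.30, edgeR adjusted p = 0.789) with all 6 libraries, and -0.39 (SE 0.25, adjusted p = 0.487) without WT replicate 1. Ccne1, one of the 2 E-type cyclins that start DNA replication with Cdk2, stood at 1.20, 1.32 and 0.574 CPM in KO, against 0.813, 1.33 and 1.21 CPM in WT. Ccne2 (chromosome 5, 24285078 to 24298258, plus strand), the other, stood at 7.90, 7.47 and 7.27 CPM in KO, against 2.37, 6.76 and 7.86 CPM in WT. One library set this difference: WT replicate 1 had 0.324 times the mean of WT replicates 2 and 3, the lowest such ratio among the members, and Ccne2 had the highest log2 fold change of all members, 0.41 (SE 0.40, edgeR adjusted p = 0.67). Without that library it was 0.05 (SE 0.16, adjusted p = 0.92). Ccne2 overlaps Ints8 on the opposite strand by 2717 bases, and whether reads were counted by strand is not stated.

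Of the 9 genes of DNA synthesis, 0 passed. Pcna, the sliding clamp of DNA polymerase, stood at 51.6, 48.0 and 50 CPM in KO, against 51.8, 54.2 and 49.6 CPM in WT. Its highest library was 1.13 times its lowest, the narrowest range of any member. Mcm7 (chromosome 12, 17042207 to 17049470, minus strand), a subunit of the MCM2-7 replicative helicase whose promoter is shown above, stood at 42.6, 40.0 and 36.3 CPM in KO, against 47.1, 36.3 and 36.2 CPM in WT. The log2 fold change of Mcm7 was -0.01 (SE 0.14, edgeR adjusted p = 0.982) with all 6 libraries, and 0.13 (SE 0.08, adjusted p = 0.477) without WT replicate 1. Mcm2 (chromosome 4, 121346434 to 121360962, minus strand), another helicase subunit, stood at 20.0, 17.8 and 19.8 CPM in KO, against 32.1, 21.2 and 19.1 CPM in WT. It had the lowest unadjusted p of all members with 6 libraries, and WT replicate 1 stood above the other 5. For Mcm2 the log2 fold change was -0.33 (SE 0.21, edgeR adjusted p = 0.55) with all 6 libraries, and -0.07 (SE 0.11, adjusted p = 0.809) without WT replicate 1.

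The other 4 helicase subunits overlapped between genotypes as well. Mcm3 stood at 15.9, 16.8 and 20.1 CPM in KO, against 18.4, 18.0 and 13.6 CPM in WT. Mcm4 stood at 18.7, 20.8 and 21.2 CPM in KO, against 17.8, 20.9 and 18.0 CPM in WT. The subunits did not share an order of libraries: WT replicate 1 was lowest of the 6 for Mcm4 and highest for Mcm2, Mcm6 and Mcm7. Mcm5 stood at 9.58, 10.6 and 10 CPM in KO, against 12.9, 13.2 and 8.85 CPM in WT. Mcm6 stood at 17.5, 14.3 and 15.1 CPM in KO, against 20.0, 15.6 and 12.5 CPM in WT. For Mcm5 and Mcm6, WT replicate 3 was lowest of all 6 libraries. Tyms, thymidylate synthase, stood at 32.4, 29.2 and 25.9 CPM in KO, against 21.9, 32.1 and 30.1 CPM in WT. Rrm2, the small subunit of ribonucleotide reductase, stood at 3.27, 3.94 and 2.42 CPM in KO, against 4.30, 3.62 and 3.32 CPM in WT. WT replicate 1 was lowest for Tyms and highest for Rrm2, enzymes that both supply DNA precursors.

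Of the 7 genes of mitotic kinases and checkpoint proteins, 0 passed, and Aurkb came closest in the comparison without WT replicate 1. Aurkb (chromosome 10, 53744290 to 53750831, plus strand), the kinase of the chromosomal passenger complex that corrects attachments of chromosomes to the spindle, stood at 16, 15.7 and 11.5 CPM in KO, against 12.3, 16.5 and 24.8 CPM in WT. WT replicate 3 stood well above the rest, WT replicate 1 lay within the KO range, and WT replicate 2 lay just above it. For Aurkb the log2 fold change was -0.31 (SE 0.27, edgeR adjusted p = 0.639) with all 6 libraries, and -0.00308 without WT replicate 3. It was -0.52 without WT replicate 1 (SE 0.18, 95% confidence interval -0.93 to -0.11, unadjusted p = 0.0181, adjusted p = 0.169), the lowest p of all members in that comparison, and -0.20 with WT replicate 3 left out too. In the same comparison with no filter on low counts, Aurkb passed as lower in KO (-0.52, edgeR adjusted p = 0.00616), where 1707 genes were called. Birc5 (chromosome 10, 103072530 to 103081382, plus strand), survivin, of the same complex, stood at 2.04, 1.20 and 2.46 CPM in KO, against 3.49, 2.29 and 2.52 CPM in WT. It had the lowest log2 fold change of all members with 6 libraries, -0.54 (SE 0.34, edgeR adjusted p = 0.552), while it was -0.34 (SE 0.33, adjusted p = 0.673) without WT replicate 1.

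Plk1 (chromosome 1, 176716420 to 176726400, plus strand), polo-like kinase, which acts at centrosomes and kinetochores, stood at 4.73, 4.60 and 3.03 CPM in KO, against 6.60, 2.99 and 3.19 CPM in WT. WT replicate 1 had 2.14 times the mean of the other WT libraries, the highest such ratio among the members. The log2 fold change was -0.05 (SE 0.37, edgeR adjusted p = 0.96) with all 6 libraries and 0.42 (SE 0.25, adjusted p = 0.439) without WT replicate 1, the highest of the members there. Bub1 and Bub1b encode kinases of the spindle checkpoint, the second of them a pseudokinase. Bub1 stood at 5.21, 5.99 and 4.37 CPM in KO, against 2.57, 5.67 and 6.65 CPM in WT. Bub1b stood at 3.24, 3.34 and 1.66 CPM in KO, against 4.27, 3.11 and 2.25 CPM in WT. WT replicate 1 was lowest of all for Bub1 and highest of all for Bub1b. Aurka, the kinase of spindle poles, stood at 7.58, 7.16 and 8.71 CPM in KO, against 8.29, 7.72 and 6.60 CPM in WT. Melk, a kinase expressed in dividing cells, stood at 1.26, 1.99 and 1.40 CPM in KO, against 1.90, 2.2 and 2.12 CPM in WT. KO replicate 2 was above WT replicate 1 for Melk, which is the single overlap in that gene.

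Both genes of the anaphase-promoting complex pathway overlapped between genotypes. Ube2c (chromosome 3, 153506636 to 153509036, plus strand), the ubiquitin-conjugating enzyme of the complex, stood at 2.69, 1.58 and 1.85 CPM in KO, against 3.52, 3.41 and 1.72 CPM in WT. For Ube2c the log2 fold change was -0.50 (SE 0.37, edgeR adjusted p = 0.597) with all 6 libraries, and -0.33 (SE 0.36, adjusted p = 0.721) without WT replicate 1. Cdc20, the activator of the complex at anaphase, stood at 6.51, 6.18 and 5.84 CPM in KO, against 9.55, 6.30 and 5.60 CPM in WT. The KO libraries were close together, and WT replicate 1 alone stood above them.

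The 10 genes of the spindle and of chromosome structure gave 0 calls. Mki67, which encodes the surface protein of mitotic chromosomes known as the Ki-67 antigen, stood at 17.2, 14.6 and 12.7 CPM in KO, against 13.1, 15.5 and 15.5 CPM in WT. Its means were 14.8 ± 2.25 CPM in KO and 14.7 ± 1.41 CPM in WT (SD, n = 3 each). Top2a, topoisomerase II alpha, which untangles sister chromatids, stood at 13.9, 14.1 and 10.2 CPM in KO, against 13.3, 12 and 12.6 CPM in WT. For both genes KO replicate 3 was the lowest of 6 libraries. Kif23 (chromosome 8, 62397908 to 62425162, minus strand), a motor of the central spindle in cytokinesis, stood at 13.3, 13.9 and 12.2 CPM in KO, against 8.19, 15 and 15.3 CPM in WT. The KO libraries lay between WT replicate 1 and the other WT libraries. Its log2 fold change was 0.03 (SE 0.25, edgeR adjusted p = 0.957) with all 6 libraries, and -0.21 (SE 0.12, adjusted p = 0.408) without WT replicate 1.

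Other motors and spindle proteins gave similar overlaps. Kif20a, a cytokinesis motor, stood at 12.3, 10.7 and 9.60 CPM in KO, against 9.31, 10.4 and 11.2 CPM in WT; it overlaps Cdc23, which had more counts, on the opposite strand by 1890 bases. Kif11, the motor that separates spindle poles, stood at 3.85, 3.97 and 3.06 CPM in KO, against 4.33, 4.34 and 3.91 CPM in WT. KO replicate 2 exceeded WT replicate 3 for Kif11, and the other KO libraries lay below all WT libraries. Tpx2, which activates Aurora A on the spindle, stood at 6.64, 4.92 and 4.78 CPM in KO, against 8.50, 4.13 and 5.42 CPM in WT. Nusap1, a microtubule-binding spindle protein, stood at 5.12, 3.66 and 2.81 CPM in KO, against 4.06, 4.46 and 3.59 CPM in WT. KO replicate 1 was the highest of the KO libraries for both of these genes.

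The centromere genes likewise overlapped. Cenpa (chromosome 6, 25700142 to 25711767, minus strand), the histone H3 variant that marks centromeres, stood at 2.72, 4.79 and 3.22 CPM in KO, against 2.54, 3.08 and 2.79 CPM in WT. KO replicate 2 was highest of all 6, and the log2 fold change was 0.35 (SE 0.28, edgeR adjusted p = 0.612) with all 6 libraries, and 0.29 (SE 0.28, adjusted p = 0.665) without WT replicate 1. Leaving out KO replicate 2 gave 0.0837 with the other 5 libraries. Cenpe, a kinetochore motor, stood at 2.69, 2.96 and 3.19 CPM in KO, against 1.86, 3.68 and 3.32 CPM in WT. Cenpf, a kinetochore protein of G2 and mitosis, stood at 7.74, 7.34 and 6.38 CPM in KO, against 6.30, 8.84 and 5.87 CPM in WT. WT libraries were both the highest and the lowest for Cenpe and Cenpf.

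WT replicate 1 deviated from the other libraries in both directions. It lay above the other 5 libraries for 13 members and below them for 9, together 61.1% of the members, against 73.6% of all genes tested. The 13 above were E2f1, Cdk1, Ccnb1, Mcm2, Mcm6, Mcm7, Rrm2, Birc5, Bub1b, Plk1, Cdc20, Ube2c and Tpx2. The 9 below were Ccna2, Ccne2, Mcm4, Tyms, Bub1, Cenpa, Cenpe, Kif20a and Kif23. Both promoter classes described above were on either side, with Mcm7 and Plk1 above and Tyms and Kif23 below. The muscle and squamous markers that moved with this library are given above, and their part in the members' values was not tested.

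KO replicate 3 was the lowest library for 13 of 36 members (36.1%), where it was lowest for 11.9% of all genes tested. Its median log2 difference from the mean of the other 5 libraries was -0.19 over the members and 0.01 over all genes, and 7 of 36 members were above 0. Among the 5 libraries other than WT replicate 1, KO replicate 3 was lowest for 18 of 36 members, against 18.9% of all genes. Among the marker lists, cardiac muscle genes summed to 79.6, 153 and 334 FPKM in KO replicates 1 to 3, against 456, 85.4 and 133 FPKM in WT replicates 1 to 3, and 4 of the 5 were highest in KO replicate 3. Actc1 made up 438 FPKM of the sum in WT replicate 1, where 3 of the 5 genes were lowest. Erythroid genes summed to 1630, 1150 and 627 FPKM in KO, against 893, 2750 and 3100 FPKM in WT, and 3 of the 6 were lowest in KO replicate 3. KO replicate 3 was also lowest for 6 of 6 alveolar type 2 markers, 4 of 5 alveolar macrophage markers and 5 of 6 platelet markers, and highest for 6 of 6 B cell and 5 of 6 T cell markers. The part of these cell types in the low member levels was not tested. Without KO replicate 3 the median member log2 fold change was -0.02 with the other 5 libraries and 0.04 when WT replicate 1 was left out too.

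**Figure D4:**
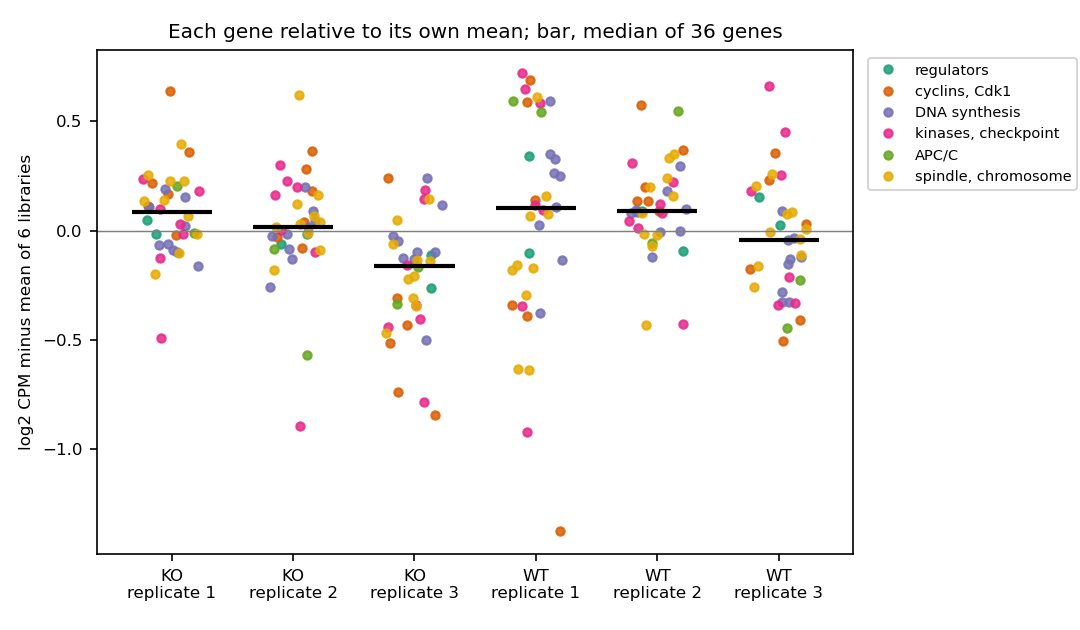
Each member's log2 CPM minus its own mean over 6 libraries (y axis) in each library (x axis), coloured by role; bars are medians over the 36 genes. WT replicate 1 spreads widest to both sides, with Ccne2 the lowest point, and KO replicate 3 lies lowest at its median.

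Further genes of the cell cycle outside the 36 gave 1 call, and that without WT replicate 1. Of 34 other genes of replication, 65 of mitosis, 9 of G1 entry and 24 that restrain the cycle, 0 were called with all 6 libraries, where 0.0542% of all genes were. DESeq2 and limma-voom also called 0. At an unadjusted p under 0.05 edgeR found 1 gene of replication (higher in KO), 4 higher and 2 lower genes of mitosis, 0 of G1 entry, and 2 higher and 2 lower among the genes that restrain the cycle, together 8.33% of the 132 against 11.3% of all genes. The median log2 fold changes were 0.06, 0.00, -0.11 and 0.09 in the same order. The medians were 0.03, 0.05, -0.07 and 0.05 without WT replicate 1, and Cdkn1a passed as lower in KO, 1 gene of the 132 (0.758%, against 3.99% of all genes). Marker sums of most cell types listed, not only of those that can divide, differed between the genotypes without overlap, in both directions. Of single genes tested, 22.8% had groups that did not overlap. Endothelium markers summed to 890 to 963 FPKM in KO and 1070 to 1760 FPKM in WT, and airway markers to 11700 to 13900 FPKM in KO and 8160 to 10200 FPKM in WT. Most of the airway sum was Scgb1a1 alone, at 11100 to 13200 FPKM in KO and 7850 to 9710 FPKM in WT. Neutrophil, erythroid, striated muscle, squamous and cardiac muscle sums overlapped. Natural killer cell markers summed to 91 to 92.5 FPKM in KO and 10.3 to 47.6 FPKM in WT, B cell markers to 63.9 to 76.7 FPKM in KO and 25 to 48.9 FPKM in WT, and T cell markers to 81.9 to 100 FPKM in KO and 53.3 to 66.4 FPKM in WT. Alveolar type 2 markers summed to 13600 to 14600 FPKM in KO and 15900 to 26400 FPKM in WT, and alveolar macrophage markers to 55.1 to 68.3 FPKM in KO and 77.4 to 86.6 FPKM in WT. Single markers did not all follow these sums. Cd4 of the T cell list, Abca3 and Lamp3 of the type 2 list, and Pparg and Marco of the macrophage list overlapped between the genotypes. So did Kdr, Pecam1 and Tek of the endothelium list and Foxj1 and Cyp2f4 of the airway list. Kdr and Tek were higher in all KO libraries than in WT replicates 2 and 3, against the direction of the endothelium sum. The part of these cell types in the cell cycle values was not tested. Neither these 132 genes nor the members were in the authors' deposited table, which lists 192 genes.

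Cdkn1a, the cyclin-dependent kinase inhibitor p21, stood at 44.2, 36.2 and 34.9 CPM in KO, against 84.4, 50.9 and 51.3 CPM in WT. All KO libraries lay below all WT libraries. With all 6 libraries its log2 fold change was -0.70 (SE 0.22) and did not pass (edgeR adjusted p = 0.333). Leaving out WT replicate 1 gave -0.41 (SE 0.10, edgeR adjusted p = 0.0477). The call was also lost with upper quartile factors (edgeR adjusted p = 0.0628) and with limma on FPKM (0.131 and 0.139), and the adjusted p ran from 0.000284 to 0.184 over the alternatives run. It was lost with KO replicate 2, KO replicate 3, WT replicate 2 or WT replicate 3 left out as well (edgeR adjusted p 0.127 to 0.184). Cdkn2a, which encodes the inhibitors p16 and ARF, was rare, at 0.259, 0.126 and 0.128 CPM in KO, against 0.914, 0.784 and 0.563 CPM in WT. Its log2 fold change was -2.11 (SE 0.50, edgeR adjusted p = 0.248) with all 6 libraries, and -1.95 (SE 0.63, adjusted p = 0.132) without WT replicate 1. Btg1, an antiproliferative gene of resting lymphocytes, stood at 191, 204 and 197 CPM in KO, against 170, 170 and 171 CPM in WT, with an adjusted p of 0.42 and, without WT replicate 1, 0.0706 (edgeR). In the comparison without WT replicate 1, Btg1 passed as higher in KO with DESeq2 (adjusted p = 0.0195). It also passed there with edgeR's robust fit (adjusted p = 0.0485) and in edgeR with no filter on low counts (adjusted p = 0.0398), and not with the other alternatives run.

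The remaining genes with the smallest p in each list were called in neither comparison by edgeR with the filter on low counts. Without WT replicate 1, Ccnf passed with DESeq2 (adjusted p = 0.0229), and Ccnf, E2f2 and Pimreg passed in edgeR with no filter (adjusted p = 0.00634, 0.0453 and 0.0423). With WT replicate 3 left out as well, which leaves 1 WT library, the edgeR log2 fold change of Ccnf was 1.11. Ccnf, a cyclin of a ubiquitin ligase, stood at 9.16, 9.93 and 9.76 CPM in KO, against 7.92, 4.43 and 7.24 CPM in WT (edgeR adjusted p = 0.441, and 0.0868 without WT replicate 1). E2f2, an activating E2F, stood at 26.5, 31.2 and 29.2 CPM in KO, against 29.0, 23.0 and 23.2 CPM in WT (edgeR adjusted p = 0.563, and 0.0895 without WT replicate 1). WT replicate 1 lay within the KO range for E2f2, and all WT libraries lay below the KO ones for Ccnf. Incenp, the scaffold of the chromosomal passenger complex to which Aurkb and Birc5 belong, stood at 15, 13.4 and 15.2 CPM in KO, against 10.8, 12.3 and 9.46 CPM in WT, with edgeR adjusted p values of 0.394 with all 6 libraries and 0.166 without WT replicate 1. All KO libraries lay above all WT libraries for Incenp. Pimreg stood at 0.583, 0.567 and 0.670 CPM in KO, against 2.07, 2.38 and 0.831 CPM in WT, with edgeR adjusted p values of 0.311 with all 6 libraries and 0.169 without WT replicate 1. Tipin and Rfc5, both of DNA replication, had log2 fold changes of 0.38 (SE 0.16) and 0.11 (SE 0.20), and 0.27 (SE 0.12) and 0.32 (SE 0.13) without WT replicate 1. Among G1 entry genes, Mycn, a MYC family factor, stood at 3.76, 5.77 and 6.35 CPM in KO, against 3.93, 3.14 and 3.73 CPM in WT (edgeR adjusted p = 0.457, and 0.228 without WT replicate 1). The G1 kinase Cdk6 and the D-type cyclin Ccnd2 had log2 fold changes of 0.05 (SE 0.18) and -0.11 (SE 0.12), and -0.14 (SE 0.07) and -0.16 (SE 0.09) without WT replicate 1.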

How the data were processed

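Counts, FPKM values and a table of the authors' comparison were deposited for 6 lung libraries of 3 KO and 3 WT rats. The submitters' processing notes name mRatBN7.2, featureCounts 2.0.6, StringTie 2.2.3, HISAT2 2.2.1, DESeq2 1.42.0 and CASAVA, without roles or settings. The authors deposited raw counts per gene; even counts were commoner than odd ones among low counts (3355 genes with 2 to 10 against 1802 with 1 to 9 in KO replicate 1), the pattern of read pairs entered as 2 reads, so counts may overstate independent fragments. The deposited FPKM values are the count per gene length and a normalised library size: the divisor was 1.04 to 1.05 times the total count in KO, 0.868 times in WT replicate 1 and 1.01 and 1.02 times in WT replicates 2 and 3 (median over genes with at least 50 counts). In the authors' deposited comparison table, p-values, log2 fold changes and per-library signal (scaled counts) are listed; it was used only to look for members.

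Counts were tested with edgeR 4.0.16 in R 4.3.3 (TMM, filterByExpr with a minimum count of 10 and total of 15, glmQLFit, then glmQLFTest of genotype, Benjamini-Hochberg adjustment over all tested genes, threshold 0.05). Standard errors are the log2 fold change over the square root of F. Alternatives used DESeq2 1.42.0 and limma 3.58.1. On FPKM, limma used log2(FPKM + 1) or log2(FPKM + 0.1), and the addition of 1 understates changes of low genes. With all 6 libraries, log2(FPKM + 0.1) gave a smaller log2 fold change than edgeR for Cenpa (0.264 against 0.352). For Ccne2 it gave a larger one (0.533 against 0.412). The members and lists were chosen with earlier results of these data known, including that WT replicate 1 stands apart. Genes named outside the members are the 3 of each list with the smallest p without WT replicate 1. Members were given fold changes where they had the smallest p of their role or the highest or lowest fold change in either comparison. In the deposited annotation 10 members overlap another gene, 7 of them on the opposite strand, and their counts are uncertain. Markers were matched by symbol; Chil3 was not matched.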

Additional observations from a re-analysis of the deposited data

How the results depend on the processing

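The count of 0 called members held under the alternatives run with all 6 libraries and, without WT replicate 1, under all but 1: with no filter on low counts 1 member (Aurkb, log2 fold change -0.523) was called. The count over all genes was less stable. With all 6 libraries, 10 genes were called, against 501 with DESeq2, 2 with the replicate block and 1 to 758 with 1 library left out, the 758 without WT replicate 1. Without WT replicate 1, 758 were called, against 1188 with DESeq2, 180 and 236 with limma on log2(FPKM + 1) and log2(FPKM + 0.1), 1707 with no filter and 233 to 522 with a further library left out. Where WT replicate 2 or 3 was also left out, 1 WT library remained, assumed to vary like the KO ones. Other cell cycle genes numbered 0 with all 6 libraries, and 0 to 1 with 1 library left out. Without WT replicate 1 they numbered 1 (Cdkn1a), against 3 with DESeq2 (Cdkn1a, Btg1 and Ccnf), 5 with no filter, 2 with the robust fit, 0 with upper quartile factors and with either FPKM scale, and 0 to 1 with a further library left out, where the 1 was Ccnf without WT replicate 3 and Cdkn1a without KO replicate 1. The causes were not tested.

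The median member log2 fold change moved by less than 1 SD of the library medians under each alternative. Members near 0 turned sign. With all 6 libraries Mcm7 was 0.0412 with upper quartile factors, 0.00453 with limma-voom and 0.00538 with a mean CPM of at least 1. Plk1 was 0.0087 with upper quartile factors, 0.0494 with limma-voom, 0.0113 with log2(FPKM + 0.1) and 0.0182 with the replicate block. With 1 library left out, Ccna2 ran from -0.386 to 0.102, Kif23 ran from -0.206 to 0.174, Mcm7 ran from -0.0746 to 0.13 and Plk1 ran from -0.248 to 0.416. Without WT replicate 1 and with a further library left out, Ccne2 ran from -0.0557 to 0.157, Cdk1 ran from -0.351 to 0.261, E2f1 ran from -0.125 to 0.0304, Mcm2 ran from -0.148 to 0.0102 and Ube2c ran from -0.744 to 0.249.

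The replicate numbers do not pair the rats in the labels, and same-numbered libraries did not deviate together (correlations over genes of -0.123, 0.049 and -0.124 for numbers 1 to 3). The replicate block changed no member call. Depth limits the members of lowest count, such as Ccne1 with 18 counts in KO replicate 3.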
